A study of Mus musculus with 6 samples.

Results

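Rab5a and Atg3 are 2 of the 50 mRNAs that carry probes on a mouse small RNA array used to profile plasma extracellular vesicles (EVs). They were taken by probe identifier, A_51_P117604 for Rab5a (accession NM_025887) and A_51_P143855 for Atg3 (NM_026402), and each probe was printed on 10 of the 14692 non-control spots of every array. The array held 14242 probes in all, most of them for small RNAs. The study compared 3 samples of plasma EVs from lung cancer mice (cancer-EVs) with 3 from control mice (non-cancer-EVs), with 1 array per sample. The lung cancer mice carried Lewis lung carcinoma (LLC), a tumor line of mouse lung, which the study transplanted orthotopically in its LLC model, and the methods name young C57BL/6J mice for the study as a whole. Neither an age for the plasma donors in particular nor whether a sample came from 1 mouse or a pool is given in the sources used here. The labels give mice as the organism and exosomes as the material, although their treatment text speaks of irradiated blood of volunteers. Each RNA sample was dephosphorylated to free 3′ ends and labeled with the dye Cy3. Fewer vesicles of a kind and less RNA per vesicle cannot be told apart in such samples.

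RAB5A is a small GTPase of the early endosome. In its GTP-bound form it recruits tethering factors and a lipid kinase to the membrane, so that incoming vesicles fuse with the endosome. ATG3 is the E2-like enzyme of autophagy that attaches LC3 and related proteins to the lipid phosphatidylethanolamine on the growing autophagosome membrane. Exosomes, the smallest class of EVs, form as vesicles inside late endosomes, where the endosome and autophagy pathways meet. An mRNA in EVs is a cargo molecule, and its level says nothing direct about the activity of either pathway in the cells of origin.

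The region before the transcription start is shown for both genes because it is a feature that the choice of the probes did not use. The sequences are the 250 bases before each gene's start in RefSeq, build GRCm38.p6, plus strand, at chr17:53478984-53479233 for Rab5a and chr16:45158579-45158828 for Atg3, and capitals mark CACGTG. The sequences of the array probes themselves are not used here.
Rab5a: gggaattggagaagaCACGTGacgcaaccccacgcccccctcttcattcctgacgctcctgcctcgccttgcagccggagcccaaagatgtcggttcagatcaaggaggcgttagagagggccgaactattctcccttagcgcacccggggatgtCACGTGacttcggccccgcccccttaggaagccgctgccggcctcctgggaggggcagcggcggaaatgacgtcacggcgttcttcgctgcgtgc
Atg3: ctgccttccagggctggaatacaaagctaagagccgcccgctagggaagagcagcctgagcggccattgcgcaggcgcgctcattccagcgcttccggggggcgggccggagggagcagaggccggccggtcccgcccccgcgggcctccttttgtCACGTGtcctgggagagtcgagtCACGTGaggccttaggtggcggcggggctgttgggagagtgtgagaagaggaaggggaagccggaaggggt
CACGTG is an E-box, which reads the same on both strands and is bound by basic helix-loop-helix factors. Each of the windows held 2 copies. In Rab5a they began 235 and 95 bases before the start, and in Atg3 94 and 71 bases before it. One copy in each gene lay within the longer TCACGTGA, which contains CACGTG and is the core of the element that TFEB, a regulator of lysosome and autophagy genes, binds. Over 32851 windows of the same length, 6.02% held CACGTG, 0.429% held 2 or more copies and 0.785% held TCACGTGA. The windows of Rab5a and Atg3 had a GC content of 64.0% and 68.0%, against a median of 52.4% over all windows, and among the windows of at least 60% GC 9.32% held CACGTG, 0.948% held 2 or more copies and 1.37% held TCACGTGA. A match is a description of these letters, and no binding was measured. Only CACGTG and TCACGTGA were searched. Since TFEB is tied to autophagy genes, the choice of motif was not independent of the choice of genes, and the shares are no test.

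Both probes gave a signal above background on every array. All 10 spots of each probe were well above background on each of the 6 arrays and none was saturated. Of all non-control spots, 89.71% to 98.34% per array were well above background and none was saturated. Neither trait thus sets the 2 genes apart. Before normalization, the median Rab5a spot signal was 19.0, 34.0 and 54.2 in non-cancer-EVs 1, 2 and 3 and 44.7, 82.2 and 34.4 in cancer-EVs 1, 2 and 3. The median Atg3 spot signal was 18.1, 23.6 and 34.3 in non-cancer-EVs 1, 2 and 3 and 20.8, 50.7 and 37.0 in cancer-EVs 1, 2 and 3. Both genes were dimmest in non-cancer-EVs 1 and brightest in cancer-EVs 2. Each array also carries 77 negative control spots, and the Rab5a values were 17.4 to 72.6 times, the Atg3 values 16.5 to 44.8 times, the median of these. The arrays themselves differed in brightness, from a median of 24.7 over all non-control spots in non-cancer-EVs 2 to 44.4 in cancer-EVs 2, so the raw values mix the gene and the array. Relative to the median of its own array, Rab5a was at 0.657, 1.38 and 1.26 in the non-cancer-EVs and at 1.71, 1.85 and 1.01 in the cancer-EVs. Atg3 was at 0.626, 0.955 and 0.8 in the non-cancer-EVs and at 0.796, 1.14 and 1.09 in the cancer-EVs. Non-cancer-EVs 1 therefore stood lowest for both genes after its own brightness was taken into account.

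**Figure D1:**
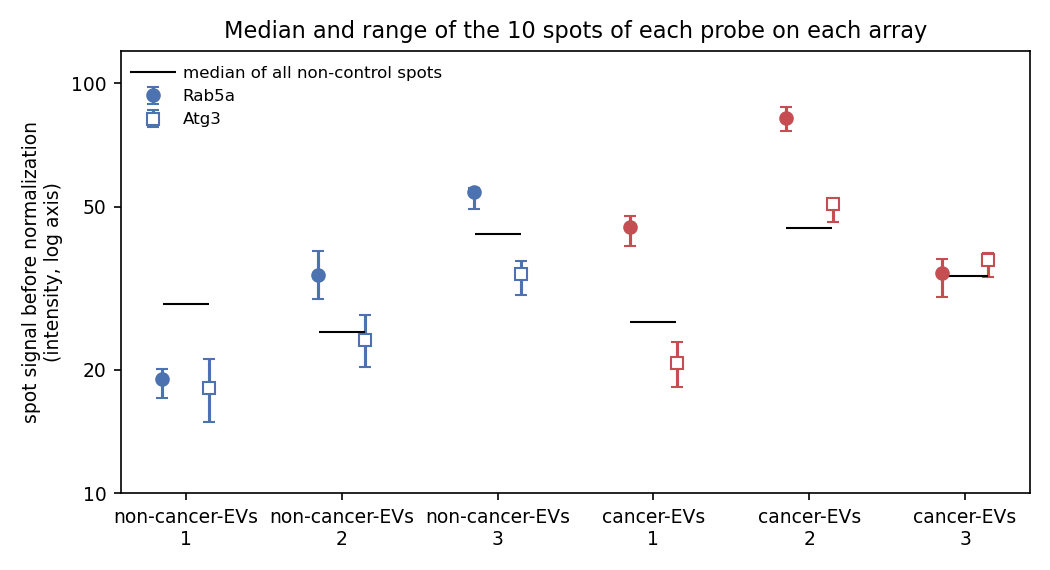
Spot signal before normalization (vertical axis, intensity on a log axis) of Rab5a (filled circles) and Atg3 (open squares) on the 6 arrays, blue for non-cancer-EVs and red for cancer-EVs; symbols are the median and whiskers the lowest and highest of 10 spots, and black bars mark the median of all non-control spots. The whiskers are short beside the distance between arrays, and Rab5a ranges from a median of 19.0 in non-cancer-EVs 1 to 82.2 in cancer-EVs 2.

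The signals were then quantile normalized between the arrays, as the methods of the study describe, set to at least 1, converted to log2 and averaged over the spots of a probe. Normalized log2 signals of Rab5a were 4.40, 5.47 and 5.40 in non-cancer-EVs 1, 2 and 3 and 5.84, 5.93 and 5.11 in cancer-EVs 1, 2 and 3. Cancer-EVs 1 and 2 lay above all 3 non-cancer-EVs, whereas cancer-EVs 3 lay below non-cancer-EVs 2 and 3, so the groups overlapped. Rab5a averaged 5.63 ± 0.45 (SD, n = 3) over the cancer-EVs, against 5.09 ± 0.60 (SD, n = 3) over the non-cancer-EVs. The difference of 0.54 on the log2 scale (standard error 0.33), a fold of 1.45, exceeded the 1.4-fold cutoff of the methods but not the p cutoff of 0.05 in limma, where the unadjusted p was 0.143. The Benjamini-Hochberg adjusted p over all probes tested was 0.695 in limma. The 95% interval of the fold ran from 0.854 to 2.48, which includes both no difference and a 2-fold difference. An exact two-sided permutation test of the 3 arrays against 3 gave p = 0.3, where 0.1 is the smallest that this design can give.

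Atg3 followed with a smaller difference and a smaller spread. Its normalized log2 signals were 4.34, 5.002 and 4.72 in non-cancer-EVs 1, 2 and 3 and 4.74, 5.27 and 5.17 in cancer-EVs 1, 2 and 3. Cancer-EVs 2 and 3 lay above all non-cancer-EVs, and cancer-EVs 1 lay below non-cancer-EVs 2. Atg3 averaged 5.06 ± 0.28 (SD, n = 3) over the cancer-EVs, against 4.69 ± 0.33 (SD, n = 3) over the non-cancer-EVs. The difference of 0.38 on the log2 scale (standard error 0.22) was a fold of 1.30, below the 1.4-fold cutoff, with an unadjusted p of 0.129 in limma. The limma adjusted p over all probes tested was 0.691, and the 95% interval of the fold ran from 0.910 to 1.85. The exact two-sided permutation test gave p = 0.2. Neither gene was thus called, at the cutoffs of the methods or after adjustment.

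**Figure D2:**
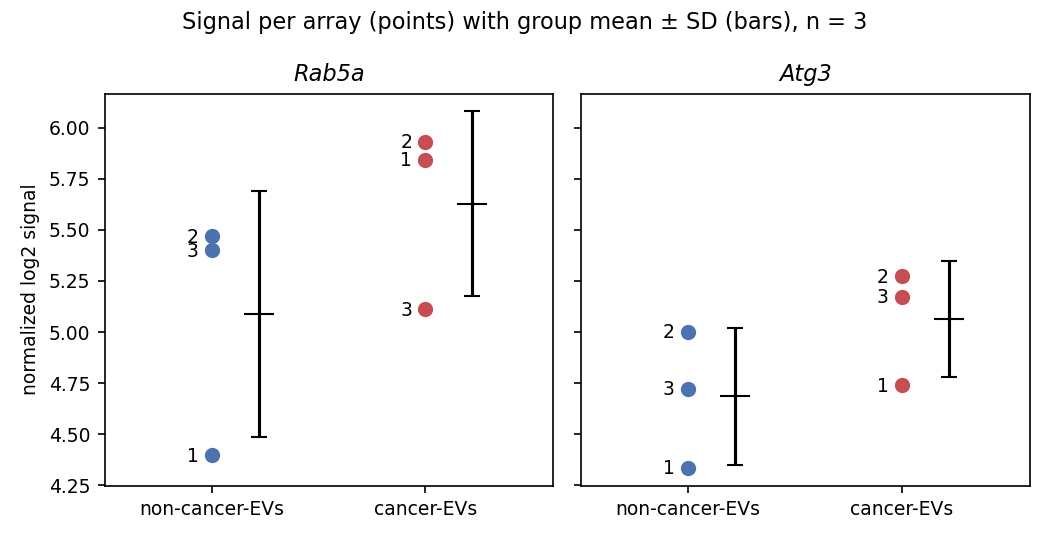
Normalized log2 signal (vertical axis) of Rab5a and Atg3 on each array, blue points for non-cancer-EVs and red points for cancer-EVs, with the replicate number beside each point; the black bars give the mean ± SD of 3 arrays. The groups overlap in both panels, through cancer-EVs 3 at 5.11 for Rab5a and cancer-EVs 1 at 4.74 for Atg3.

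The overlap came from different arrays for the 2 genes. In cancer-EVs 1 Rab5a was near its highest value while Atg3 was at its lowest of the group, and in cancer-EVs 3 this was turned around. The log2 difference between the groups was larger for Rab5a than for Atg3 by 0.17, and an exact two-sided permutation test of this gap gave p = 0.8. Leaving out non-cancer-EVs 1 gave a gap of -0.005 and leaving out cancer-EVs 1 a gap of -0.101, so its direction turned on single arrays. Across the 6 arrays the normalized signals of Rab5a and Atg3 correlated with Pearson r = 0.64 (exact permutation p = 0.168) and Spearman rho = 0.60 (exact permutation p = 0.242), the only relation between samples that was tested. Without non-cancer-EVs 1 and cancer-EVs 2, the arrays farthest from the Rab5a median, r was -0.74. These 2 arrays were picked from the same values. Leaving them out narrows the range and tends to lower r, so the drop does not show what the positive value rests on.

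The spread lay mainly between arrays and not between spots. With 1 array per sample, the spread of the samples and that of the arrays cannot be told apart. The SD between arrays of one group was 0.53 on the log2 scale for Rab5a and 0.31 for Atg3, whereas the median SD over the spots of one array was 0.05 and 0.09. The 10 spots lay between rows 8 and 189 of the 192 rows of the array for Rab5a and between rows 18 and 166 for Atg3. Of these, 6 Rab5a positions and 7 Atg3 positions had no outlier mark on any array. Each of them gave a higher mean in the cancer-EVs, with log2 differences of 0.50 to 0.59 for Rab5a and 0.22 to 0.48 for Atg3. Spots of one array share their RNA, so they are no replicates of a group and narrow the error of reading an array only.

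Single arrays decided how large the differences were. Without non-cancer-EVs 1, the log2 difference was 0.20 for Rab5a and 0.20 for Atg3, a fold of 1.15 for both. Without cancer-EVs 3 it was 0.805 for Rab5a, at an unadjusted p of 0.0459, and without cancer-EVs 1 it was 0.535 for Atg3, at an unadjusted p of 0.0451. Both of these passed the cutoffs of the methods, and in every set of 5 arrays both genes were higher in cancer-EVs. By the position code in the file headers, non-cancer-EVs 1 had row 1 with all 3 cancer-EVs, and row 2 held non-cancer-EVs 2 and 3 only. That all arrays lay on the same slide is not stated in the sources used here, so arrays of equal row code may not share a slide. Within row 1, the log2 difference was 1.23 for Rab5a (unadjusted p = 0.00889 in limma) and 0.73 for Atg3 (unadjusted p = 0.0316 in limma). These values set the cancer-EVs against the lowest array alone, a single control assumed to vary like the other arrays. The spread was taken from the row 1 cancer-EVs and the row 2 controls, and limma also drew on that of all probes. Row 2 holds no cancer-EVs, so a difference between the rows and the level of non-cancer-EVs 1 cannot be told apart.

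**Figure D3:**
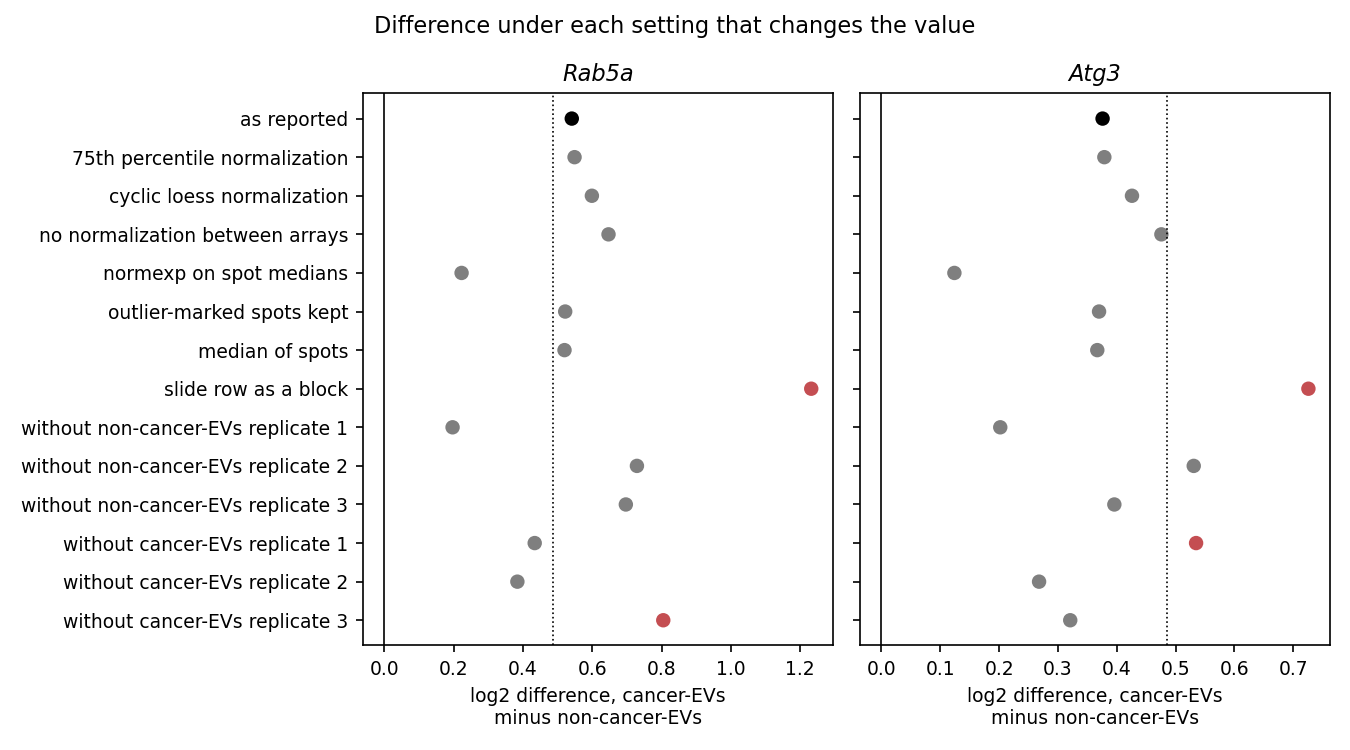
Log2 difference, cancer-EVs minus non-cancer-EVs (horizontal axis), of Rab5a and Atg3 as reported (black) and under each alternative that changes the value (grey; red where it passed both cutoffs), with 0 as a solid line and the 1.4-fold cutoff as a dotted line. Every point lies above 0, from 0.20 to 1.23 for Rab5a and from 0.12 to 0.73 for Atg3.

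The other mRNA probes of the array give the background for these values. Of the 50, 47 were well above background on at least 3 arrays. They were tested together with the small RNA probes that passed the same filter and had a value on every array, 13779 probes in all. Past both cutoffs of the methods, 3 of the 47 mRNA probes (6.38%) and 416 of all probes (3.02%) were higher in cancer-EVs, and Rab5a and Atg3 were among neither. In the other direction, 1 mRNA probe (2.13%) and 237 of all probes (1.72%) were lower past both cutoffs. The count of 3 was 1 without cancer-EVs 2, 5 without non-cancer-EVs 2, 6 without cancer-EVs 1, 7 without non-cancer-EVs 3 and reached 10 without cancer-EVs 3, so it is not a firm contrast with the share over all probes. The lower count of 1 became 2 when non-cancer-EVs 1 was left out, and 3 when cancer-EVs 1 was left out. After adjustment limma called 0 of all probes (0%), with 949 at an unadjusted p below 0.05. The groups did not overlap, with cancer-EVs higher, for 3 mRNA probes (6.38%) and for 613 of all probes (4.45%), again without Rab5a and Atg3. With cancer-EVs lower they did not overlap for 3 mRNA probes (6.38%) and 1203 of all probes (8.73%). The 3 higher mRNAs were Mzb1, Pex11a and Lhfp, and the 1 past the cutoffs in the other direction was Dnajc11; they are named here because the counts are small, after their values were seen. Lhfp was well above background on 3 of the 6 arrays, and with a filter on all 6 arrays 2 mRNA probes were higher. By unadjusted p, Atg3 was number 20 and Rab5a number 23 of the 47. A positive log2 difference was common among mRNA probes, with 31 of 47 above 0 and a median of 0.20, against 5272 of 13779 above 0 and a median of -0.07 over all probes. Without non-cancer-EVs 1 these medians were 0.05 and -0.02, and with normexp on spot medians 0.09 and -0.02. They were 0.33 and -0.001 with cyclic loess, 0.315 and 0.03 with no normalization between arrays, where the median over all probes changed sign, and 0.42 and -0.16 with the row code as a block. Rab5a had the 15th highest log2 difference of the 47, and Atg3 the 19th.

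**Figure D4:**
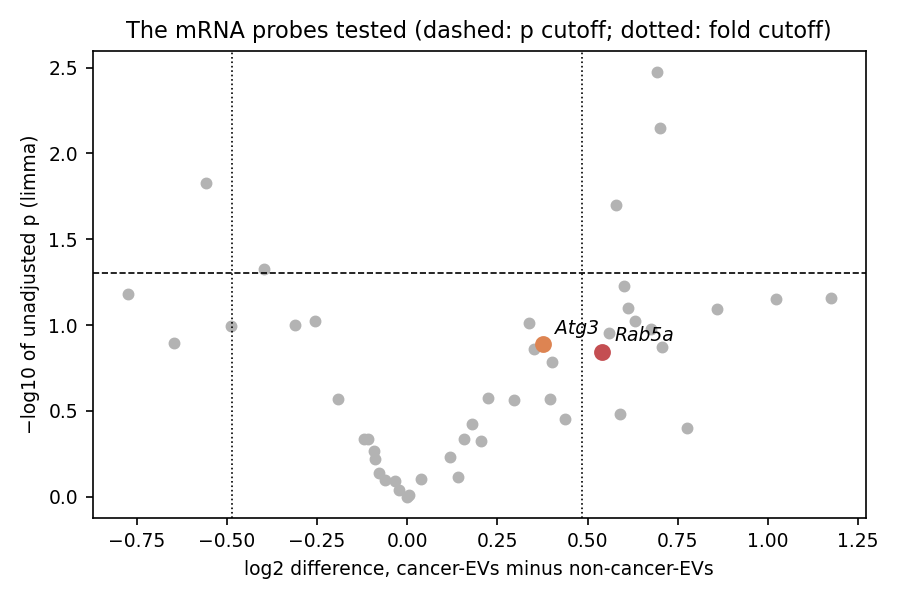
Log2 difference, cancer-EVs minus non-cancer-EVs (horizontal axis), against the negative log10 of the unadjusted limma p (vertical axis) for the 47 mRNA probes tested, in grey, with Rab5a (red) and Atg3 (orange); the dashed line is the p cutoff of 0.05 and the dotted lines are the 1.4-fold cutoffs. Rab5a and Atg3 lie below the dashed line, and 3 probes lie past both cutoffs to the right and 1 to the left.

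The Rab5a signal varied across the 6 arrays alongside several other mRNA probes. Among the 40 other mRNA probes well above background on all arrays, the pattern most like that of Rab5a was that of H2-Q7, a class Ib histocompatibility gene (r = 0.99 over 6 arrays), followed by Mbp, myelin basic protein (r = 0.99), and Gsta4, a glutathione transferase (r = 0.98). In these too non-cancer-EVs 1 was the lowest array, and cancer-EVs 1 and 2 were the highest. In all, 10 of the 40 (25%) had r above 0.9 with Rab5a, against 4.69% of all 12427 other probes, and the median r was 0.61 over the mRNA probes and -0.38 over all. The pattern most like that of Atg3 was that of Olfr1307, an odorant receptor gene (r = 0.93), then of Gamt, an enzyme of creatine synthesis (r = 0.91), and of the unnamed probe A_51_P425205 (r = 0.90). For Atg3, 3 of the 40 (7.5%) had r above 0.9, against 2.16% of all other probes. Probes on one array share its RNA and its normalization, so these values describe the arrays and carry no p.

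**Figure D5:**
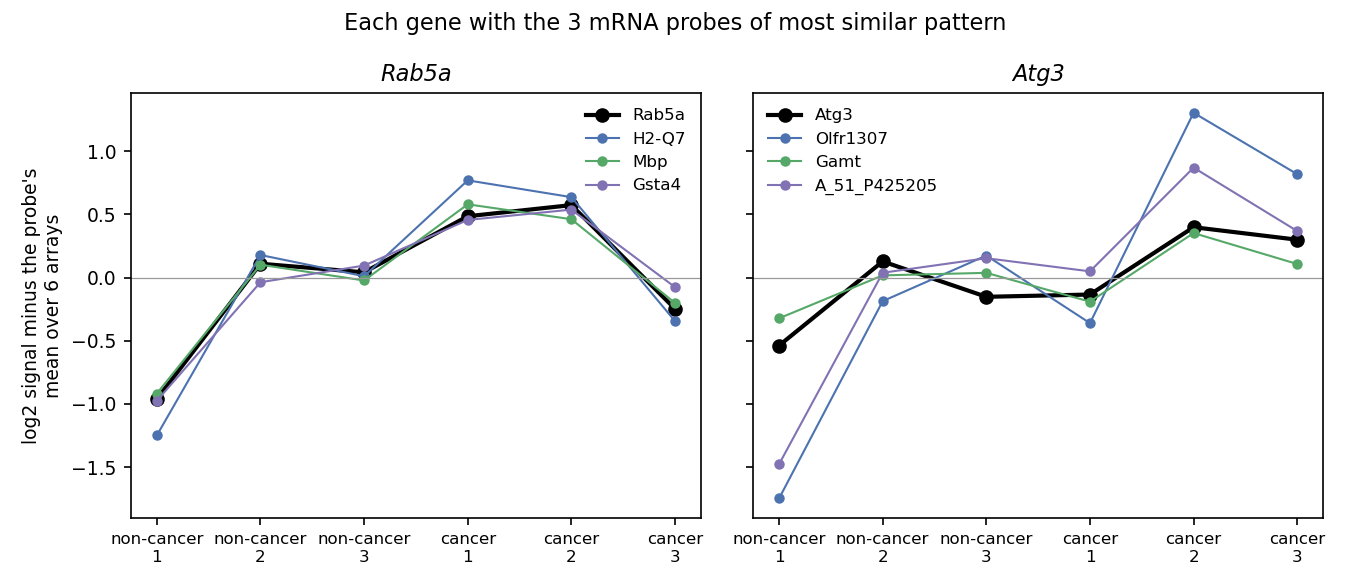
Log2 signal minus the mean of the probe over 6 arrays (vertical axis) for Rab5a and Atg3 (black) and the 3 mRNA probes of most similar pattern (colors), on each array of non-cancer-EVs and cancer-EVs; lines join the values of one probe and stand for no order of the samples. Non-cancer-EVs 1 is the low point of all 8 lines, and the Rab5a line stays close to those of Mbp and Gsta4.

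The gene lists of the same pathways could not be described beyond these genes, because the array hardly covers them. Of lists of 53 endosome genes, 22 exosome genes and 36 autophagy genes, the mRNA probes held Rab5a, none and Atg3. The EV label could therefore not be checked against EV marker mRNAs such as Cd9 and Cd63. Of 13 erythroid, 9 platelet, 13 leukocyte, 6 liver and 7 lung epithelium markers, only Prdx2, an antioxidant enzyme abundant in red cells, and Il2, a T cell cytokine, had a probe. Prdx2 had normalized log2 signals of 8.57, 9.54 and 9.83 in non-cancer-EVs and 9.11, 8.35 and 8.15 in cancer-EVs, with a log2 difference of -0.78 (limma adjusted p = 0.69). The log2 difference of Il2 was -0.02 (limma standard error 0.21). Neither passed the cutoffs, and the part of blood cell RNA in the Rab5a and Atg3 signals was not tested.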

How the data were processed

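Small RNA of plasma EVs was profiled on 6 single-color arrays. The scanner output that the authors deposited for each array came from Agilent Feature Extraction 11.0.1.1 and gives the background-subtracted intensity of each spot on a linear scale, not normalized between arrays. A second deposited table holds log2 values, after the authors' quantile normalization in GeneSpring GX, of 14192 probes. None of the 50 mRNA probes is among them, so this table could not be used for Rab5a and Atg3. Non-control spots without an outlier mark were kept. Intensities were quantile normalized, set to at least 1, converted to log2 and averaged over spots. Probes well above background (an mRNA probe on at least 50% of its spots) on at least 3 arrays were fitted together by lmFit and eBayes of limma 3.58.1 (R 4.3.3), without covariates and two-sided, with Benjamini-Hochberg adjustment over all probes. The cutoffs were those of the methods, an unadjusted p below 0.05 and a fold above 1.4. The fit was tested on simulated data. Of the mRNA accessions, 46 of 50 matched RefSeq (GRCm38.p6). Named genes were both members, the 3 mRNA probes closest to each by Pearson r and all mRNA probes of the gene lists; the few mRNAs past the cutoffs and the trafficking genes outside the lists were named after their values were seen. The members and lists were chosen with earlier results of these data known. The arrays number 3 per group, which limits the precision. The limma standard errors, intervals and p-values draw on the spread of all probes fitted as well as on that of the probe itself. The exact permutation tests use the values of the 6 arrays alone, and gave p = 0.3 for Rab5a and p = 0.2 for Atg3. A t-test without the spread of other probes gave larger p-values than limma for both genes. The spread between these samples may in part be technical. Alternatives covered normalization, background, filter, spots, test, replicate block, slide row, adjustment and leaving out each array.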

Additional observations from a re-analysis of the deposited data

How the results depend on the processing

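Adjustment over all probes was chosen as an extra setting after seeing the data. Rab5a and Atg3 were higher in cancer-EVs under every setting run. With the slide row (the row code of the headers) as a block both passed the cutoffs, at log2 differences of 1.23 and 0.73, and 17 mRNA probes were higher, since non-cancer-EVs 1 is then the lone control, assumed to vary like the other arrays. Normexp on spot medians with an offset of 50, which changes the input signal as well as the background step, gave 0.22 and 0.12. Over the sets of 5 arrays, the difference was 0.20 to 0.805 for Rab5a, highest without cancer-EVs 3, and 0.20 to 0.535 for Atg3, highest without cancer-EVs 1. The gap between the 2 differences ran from -0.101 (without cancer-EVs 1) to 0.483 (without cancer-EVs 3), and was -0.005 without non-cancer-EVs 1. The mRNA probes past the cutoffs ran from 1 (without cancer-EVs 2) to 10 (without cancer-EVs 3) higher and from 1 to 3 (without cancer-EVs 1) lower. With normexp or with no normalization between arrays 0 were lower, and adjusted within the mRNA probes or over all probes 0 were higher and 0 lower.

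After removal of the group means, arrays of the same number correlated with r = 0.09, 0.25 and -0.22 for numbers 1, 2 and 3. With 3 arrays per group and no test, these values cannot decide whether the numbers pair the samples. Fitted with the replicate block, 7 mRNA probes were higher, and the differences of Rab5a (0.54) and Atg3 (0.38) did not pass the cutoffs. The cause of these shifts was not tested. The series table gave no value, as it lists no mRNA probe.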

Other observations

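The mRNA probes include other membrane trafficking genes outside the gene lists, chosen by name with their values known. Tm9sf1, of a family of endosome and Golgi membrane proteins, had normalized log2 signals of 6.23, 6.52 and 6.62 in non-cancer-EVs 1, 2 and 3 and 6.33, 6.96 and 6.55 in cancer-EVs 1, 2 and 3, a log2 difference of 0.16 (standard error 0.20, limma adjusted p = 0.816). Cav2, which with caveolin-1 coats the caveolae of the plasma membrane, had 4.55, 4.92 and 4.81 in non-cancer-EVs and 4.94, 4.16 and 3.24 in cancer-EVs, a log2 difference of -0.65 (standard error 0.38, limma adjusted p = 0.69). The log2 difference was 0.63 (standard error 0.33, limma adjusted p = 0.69) for Uhrf1bp1l, a lipid transfer protein found at endosomes, and 0.20 (standard error 0.27, limma adjusted p = 0.819) for Anxa8, an annexin of late endosomes. The groups overlapped for each of these genes, none passed the cutoffs, and Cav2 was lowest in cancer-EVs 3.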
